A study of Mus musculus with 479 samples.

Results

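The cytosolic ribosomal protein genes were examined in heart, kidney, liver and lung of heterozygous (Het) and wild-type (WT) mice of a Dchs1 line and a Fat4 line. Members were the protein-coding rows of the deposited tables whose symbol starts with Rpl or Rps and a number, or is Rpsa, Rplp0, Rplp1, Rplp2 or Fau. Rps6k kinases and pseudogenes ending in -ps were left out. The rule took 90 of 24475 genes. They comprise 46 core genes of the large subunit, 32 core genes of the small subunit, 11 paralogs or retroposed copies, and Rps19bp1, which is not a ribosomal protein but shares the start of the symbol. The mice carried 1 modified allele of Dchs1 or of Fat4, made with the VelociGene technology, and the controls were WT littermates on a pure C57BL/6NTac background. Dchs1 and Fat4 are large cadherins that bind each other across cell borders. Each of the 16 groups (line, tissue and genotype) held 30 libraries, except Het liver of the Dchs1 line with 29, and each line had its own WT libraries. The labels give no age, sex or litter. Nothing in them says that each library is a different mouse, and the tests therefore speak only of variation among these libraries, which may be technical. By its title, the series asks how many mice an RNA sequencing study needs.

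The cytosolic ribosome translates nuclear-encoded mRNA and is built from a small subunit, which reads the mRNA, and a large subunit, which joins the amino acids. Its proteins are made in matched amounts, and their mRNAs belong to the class with a terminal oligopyrimidine (TOP) tract, a run of C and T at the very 5′ end through which the mTORC1 kinase complex adjusts their translation. The mRNAs are among the most abundant and shortest of a cell, and the genome holds many processed pseudogenes of them.

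The start sites of the members were searched for letters that the choice by symbol did not use. RefSeq windows of GRCm38.p6, which reach from 250 bases before to 50 bases after an annotated start, were matched to 70 members, of which 58 were core genes. A run of at least 8 C or T between 20 bases before and 20 bases after the start was present for 29 of the 58 core genes (50%), against 18.6% of 16480 protein-coding genes. The letters CGGAAG, on either strand of the whole window, were found for 40 of the 58 (69.0%) against 24.4% of all genes, and GGGCGG for 36 (62.1%) against 51.4%. AAGATGGC was found for 6 of the 58 (10.3%) against 3.69%. TATAAA on the gene's own strand between 40 and 15 bases before the start was found for 0 of the 58, against 3.11% of all genes. A match is a description of letters and not a measured site. The windows of 6 members that recur in the results are shown from 40 bases before to 20 bases after the annotated start, 5′ to 3′ on the gene's strand, with the longest run of C and T in capitals. Rplp0 is shown because no run of 8 lies between 20 bases before and 20 after its start. Rpsa, Rps3a1, Rpl12 and Rps4x, which also recur, have no such run either, and their windows are not shown. The windows shown therefore do not tell how common the run is among the recurring members.
Rps6 (chr4:86857348-86857407, minus strand): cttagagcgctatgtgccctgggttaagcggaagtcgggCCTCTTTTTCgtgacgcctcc
Rpl5 (chr5:107900488-107900547, plus strand): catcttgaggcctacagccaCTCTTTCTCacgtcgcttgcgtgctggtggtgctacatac
Rplp2 (chr7:141447611-141447670, plus strand): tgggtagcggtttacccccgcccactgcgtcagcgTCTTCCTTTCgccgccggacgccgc
Rpl4 (chr9:64173347-64173406, plus strand): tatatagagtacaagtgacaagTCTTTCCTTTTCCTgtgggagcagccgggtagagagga
Rps9 (chr7:3704001-3704060, plus strand): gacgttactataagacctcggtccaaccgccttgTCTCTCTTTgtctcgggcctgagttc
Rplp0 (chr5:115559427-115559486, plus strand): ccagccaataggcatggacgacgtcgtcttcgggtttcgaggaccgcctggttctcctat
The run of Rps6 is 10 bases long and starts 1 base before the annotated start. That of Rplp2 is 10 bases long and starts 5 bases before it, and that of Rps9 is 9 bases long and starts 6 before. The runs of Rpl4 (14 bases, starting 18 before) and Rpl5 (9 bases, starting 20 before) end before the annotated start. These 2 runs thus lie outside the mRNA as annotated.

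The 479 libraries held 10720364 to 32282525 reads assigned to genes. The targeted gene was lower in Het in all 4 tissues of its line, with log2 fold changes of -1.24 to -0.95, which checks the labels. Heart, kidney, liver and lung libraries each held their own tissue's markers, with median TPM (a transcript level scaled to length and to the library's total) of 4381 for Myh6 in heart, 1112 for Slc34a1 in kidney, 48784 for Alb in liver and 24246 for Sftpc in lung. The labels number the libraries. Runs of near-consecutive numbers, called number stretches here, are what the labels offer in place of a batch, and the values within and outside the longest stretch are given where they bear on a result.

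The core ribosomal protein genes were higher in Het than in WT in the kidney and the liver of the Dchs1 line, with a median rise of 8.70% for the large and 11.7% for the small subunit in kidney and of 14.9% and 16.6% in liver. Few members passed the test elsewhere. Het was compared with WT within each line and tissue with edgeR's quasi-likelihood test, and a gene is called when its adjusted p (Benjamini-Hochberg over all genes tested) is under 0.05. In Dchs1 liver 68 of 86 members tested were called higher and 2 lower, beside 24.3% of all genes called higher and 25.4% lower (49.8% in either direction). In Dchs1 kidney 54 of 87 members were called higher and 2 lower, beside 23.4% and 23.8% of all genes (47.2% in either direction). In Dchs1 heart 1 of 86 was called higher and 1 lower, beside 26.1% and 24.1% of all genes (50.2% in either direction). In Dchs1 lung 1 of 86 was called higher and 0 lower, beside 9.6% and 10.4% of all genes (20% in either direction). The members' median log2 fold change was 0.21 in Dchs1 liver, 0.13 in kidney, 0.07 in lung and 0.02 in heart, beside medians between -0.01 and 0.01 over all genes tested. Rpl10l, Rpl26 and Rpl39l had too few counts to be tested in any comparison, Rpl3l in 4 and Rps23rg1 in 2 of the 8.

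**Figure D1:**
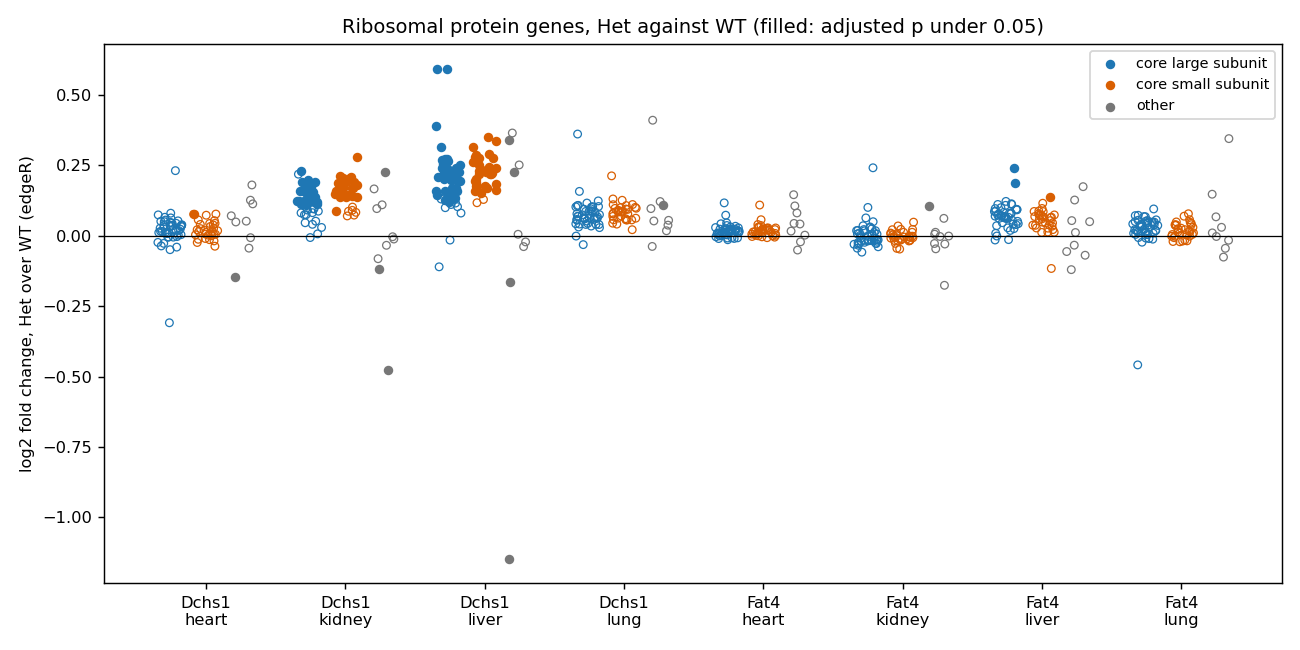
Each point is a ribosomal protein gene; the vertical axis is the edgeR log2 fold change of Het over WT in each line and tissue, filled where the adjusted p is under 0.05, and colours separate core large subunit, core small subunit and other members. The core genes form a band above 0 in Dchs1 kidney (median 0.12 for the large and 0.16 for the small subunit) and Dchs1 liver (0.20 and 0.22) and lie near 0 in Fat4 heart and kidney.

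In Dchs1 liver both subunits rose. Of 45 core large subunit genes tested 36 were called higher and 0 lower, and of 32 core small subunit genes 30 were called higher and 0 lower. The smallest p was that of Rpl3, a large subunit protein near the peptidyl transferase centre. Its normalised counts (CPM, per 1e6 counts with TMM scaling) ranged from 116 to 205 in the 30 WT libraries (median 143) and from 140 to 357 in the 29 Het libraries (median 228). The groups overlapped, but 20 of 29 Het libraries lay above the highest WT library. The log2 fold change of Rpl3 was 0.59 ± 0.07 (SE; adjusted p = 6.56e-11 by edgeR's quasi-likelihood test). Rpsa, a small subunit protein also known as a laminin receptor, ranged from 210 to 375 CPM in WT (median 283) and from 298 to 483 in Het (median 361). All 29 Het libraries of Rpsa lay above the WT median, and its log2 fold change was 0.35 ± 0.05 (adjusted p = 8.61e-09). Rplp2, an acidic stalk protein of the large subunit, had a mean of 78.4 ± 8.96 CPM (SD, n = 30; 64.9 to 95.1) in WT and 97.5 ± 11.3 CPM (SD, n = 29; 83.0 to 132) in Het. For Rplp2, 12 Het libraries lay above the highest WT library, and the log2 fold change was 0.31 ± 0.04 (adjusted p = 9.40e-09). Its coding sequence has a near-identical copy at Wdr89, so its reads may be divided.

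Rpl5, Rps6 and Rplp0 were followed in every comparison. Rpl5 carries the 5S ribosomal RNA into the large subunit and, when free, binds the p53 regulator Mdm2. In Dchs1 liver Rpl5 ranged from 201 to 345 CPM in WT (median 257) and from 268 to 471 in Het (median 308), and all 29 Het libraries were above the WT median. Rps6, the small subunit protein phosphorylated by S6 kinases, ranged from 208 to 345 CPM in WT (median 253) and from 265 to 428 in Het (median 309), again with 29 of 29 Het libraries above the WT median. Rplp0, the scaffold of the large subunit stalk and a common reference gene in quantitative PCR, ranged from 192 to 344 CPM in WT (median 269) and from 232 to 390 in Het (median 302). The log2 fold changes were 0.27 ± 0.05 for Rpl5 (adjusted p = 6.33e-06), 0.28 ± 0.05 for Rps6 (adjusted p = 1.16e-06) and 0.15 ± 0.05 for Rplp0 (adjusted p = 0.00419). The ranges of WT and Het overlapped for all 3 genes. For each of these 3 genes 4 or 5 Het libraries exceeded the highest WT library.

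The 2 members called lower in Dchs1 liver were outside the core. Rps27l, a p53-regulated paralog of Rps27, had a median of 75.9 CPM in WT (58.6 to 110) and 71.2 in Het (58.9 to 84.7), a log2 fold change of -0.17 ± 0.05 (adjusted p = 0.00383). Rps23rg1, a retroposed copy of Rps23, was near the limit of measurement, with a WT median of 0.822 CPM, a Het median of 0.356 and a log2 fold change of -1.15 ± 0.27 (adjusted p = 0.000291). Of the 9 members outside the core that were tested in liver, 2 were called higher, Rpl22l1 and Rps27rt. With 2 higher and 2 lower, these members lie near the 24.3% and 25.4% of all genes. Rpl22l1, a paralog of Rpl22 that can take its place in the ribosome, ranged from 4.72 to 24.2 CPM in WT (median 14.3) and from 7.42 to 27.1 in Het (median 19.4), with 27 of 29 Het libraries above the WT median.

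In Dchs1 kidney both subunits rose as well: 26 of 32 core small subunit and 27 of 45 core large subunit genes were higher and 0 of either lower. The difference between the subunits was not tested. The smallest p belonged to Rps3a1, which lies near the mRNA exit of the small subunit. Rps3a1 ranged from 251 to 367 CPM in WT (median 298) and from 315 to 433 in Het (median 343), so that all 30 Het libraries were above the WT median and 6 above the highest WT library. Its log2 fold change was 0.21 ± 0.03 (adjusted p = 3.02e-07). Rpl5 followed, from a WT median of 301 CPM (255 to 367) to a Het median of 338 (300 to 438), a log2 fold change of 0.19 ± 0.03 (adjusted p = 5.14e-07). Rpl4, a large subunit protein lining the peptide exit tunnel, went from a WT median of 419 CPM (345 to 499) to a Het median of 463 (437 to 564), with 30 of 30 Het libraries above the WT median and a log2 fold change of 0.17 ± 0.03 (adjusted p = 2.02e-06). Rps6 and Rplp0 were higher by log2 fold changes of 0.18 ± 0.04 (adjusted p = 0.000112) and 0.16 ± 0.04 (adjusted p = 0.000111). Rpl3, the member with the smallest p in liver, had a log2 fold change of 0.11 ± 0.03 in kidney (adjusted p = 0.00226).

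Of the 10 members outside the core tested in kidney, 1 was called higher (Rps27rt) and 2 lower, beside 23.4% and 23.8% of all genes. Their difference from the core was not tested. Rpl36al, an intronless paralog of Rpl36a, went from a WT median of 86.7 CPM to a Het median of 77.3, a log2 fold change of -0.12 ± 0.05 (adjusted p = 0.0458). Rps23rg1 had a WT median of 1.75 CPM, a Het median of 1.31 and a log2 fold change of -0.48 ± 0.15 (adjusted p = 0.00802). Between the 2 tissues of this line, 49 members were called higher in both kidney and liver, which is 90.7% of the members higher in kidney and 72.1% of those higher in liver. Over the 12054 genes tested in both tissues, 1078 were called higher in both, which is 37.5% of those higher in kidney and 36.6% of those higher in liver. Whether libraries of the 2 tissues came from the same mice is not given. A further 5 members were higher in kidney without a call in liver and 19 in liver without a call in kidney.

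**Figure D2:**
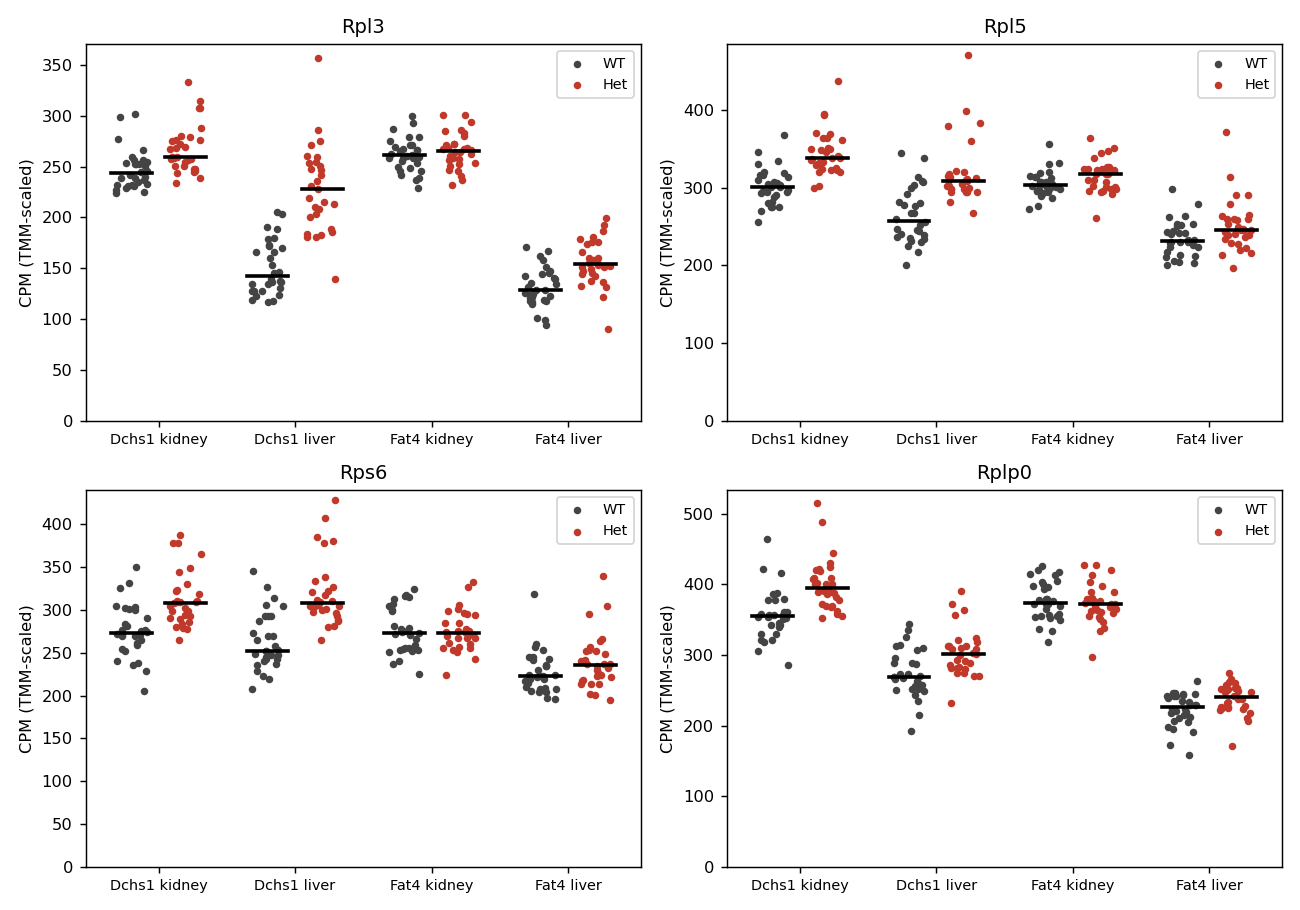
Each point is 1 library; the vertical axis is TMM-scaled CPM of Rpl3, Rpl5, Rps6 or Rplp0 in kidney and liver of both lines, WT in grey and Het in red, and bars are medians. The median of Rpl3 in Dchs1 liver is 143 in WT and 228 in Het, and that of Rps6 in Fat4 kidney 274 and 273.

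The heart and lung of the Dchs1 line gave few calls. In heart the called members were Rps9, a small subunit protein whose median was 181 CPM in WT and 192 in Het (log2 fold change 0.08 ± 0.03, adjusted p = 0.0471), and Rpl7l1. Rpl7l1, a paralog of Rpl7 that acts in early large subunit assembly, was lower, from a WT median of 24.1 CPM (19.9 to 28.0) to a Het median of 21.5 (18.9 to 25.6). Its log2 fold change was -0.15 ± 0.03 (adjusted p = 2.22e-05), and 25 of 30 Het libraries lay below the WT median. Rpl5 and Rps6 had log2 fold changes of 0.07 ± 0.03 and 0.08 ± 0.03 in heart, with adjusted p of 0.0610 and 0.0508, and 24 of 30 Het libraries were above the WT median for each. With the number stretch as a covariate 14 members were called in heart, 13 of them higher, beside 27.7% of all genes higher and 26.1% lower in that fit. In lung Rpl7l1 was the called member and went the other way, from a WT median of 62.3 CPM to a Het median of 66.9 (log2 fold change 0.11 ± 0.04, adjusted p = 0.0497). The lung libraries of this line spread widely for the core genes: Rpl5 had a mean of 765 ± 198 CPM in WT and 786 ± 213 in Het (SD, n = 30 each), and its log2 fold change of 0.04 ± 0.09 was not called (adjusted p = 0.831 by edgeR). With surrogate variables 25 members were called in lung, 24 of them higher, beside 25.3% of all genes higher and 21% lower in that fit.

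In the Fat4 line 4 calls among members were made over the 4 tissues. In Fat4 liver 3 of 86 members were called higher and 0 lower, beside 3.64% of all genes called higher and 3.51% lower (7.15% in either direction). They were Rpl3, Rpl12 and Rpsa. All 3 were also called higher in Dchs1 liver, as were 68 of the 86 members tested there. The overlap between the lines over all genes was not counted. Rpl3 ranged from 93.6 to 171 CPM in WT (median 129) and from 89.9 to 200 in Het (median 154), and 28 of 30 Het libraries were above the WT median. Its log2 fold change was 0.24 ± 0.05 (adjusted p = 0.00236). Rpl12, which lies at the base of the stalk, had a log2 fold change of 0.19 ± 0.05 (adjusted p = 0.00595) with 11 of 30 Het libraries above the highest WT library, and Rpsa had 0.14 ± 0.04 (adjusted p = 0.0229). In Fat4 kidney 1 of 87 members was called higher and 0 lower, beside 9.21% and 7.87% of all genes (17.1% in either direction). It was Rpl22l1, with medians of 29.3 CPM in WT and 31.4 in Het and a log2 fold change of 0.10 ± 0.04 (adjusted p = 0.0352). In Fat4 heart 0 of 86 were called, beside 1.6% of all genes (0.969% higher and 0.628% lower), and 1 member had an unadjusted p under 0.05 by edgeR. In Fat4 lung 0 of 86 were called, beside 0.136% of all genes (0.11% higher and 0.0259% lower), again with 1 member at an unadjusted p under 0.05. DESeq2 called 0 members in both of these tissues. The median log2 fold change of the members was 0.06 in Fat4 liver, 0.02 in Fat4 heart and lung and -0.0048 in Fat4 kidney. Rps6 in Fat4 kidney had a median of 274 CPM in WT and 273 in Het, and its log2 fold change was -0.0014 ± 0.034.

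Whether the Het effect on a member differed between the lines was tested as an interaction within each tissue. In kidney 39 of 87 members had a difference, beside 33.5% of all genes, and in all 39 the Dchs1 effect was the larger. The 5 with the smallest p were Rps4x, Rps3a1, Rpl7, Rplp0 and Rpl4. Rps4x, an X-linked small subunit protein, had a log2 fold change of 0.19 in Dchs1 kidney and -0.0080 in Fat4 kidney, a difference of 0.20 ± 0.05 (adjusted p = 0.000244 by edgeR's interaction test). In liver 29 of 86 members differed, beside 23.6% of all genes, with the Dchs1 effect larger in 28. The shares of all genes are for either direction, and their directions were not counted. Rplp2 had a difference of 0.24 ± 0.06 (adjusted p = 0.000657) and Rpl3 one of 0.37 ± 0.09 (adjusted p = 0.000742), so that Rpl3 was called higher in both lines and by more in the Dchs1 line. In heart 1 of 86 members differed, beside 25.5% of all genes. This was Rpl7l1, with a difference of -0.13 ± 0.04 (adjusted p = 0.0162). In lung 0 of 86 differed by edgeR and by DESeq2, beside 5% of all genes.

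Differences of the Het effect between tissues were tested within each line. In the Dchs1 line 12 of 87 members had a tissue difference, beside 52.2% of all genes. The smallest p belonged to Rpl3 (adjusted p = 3.38e-12 by edgeR's interaction test), whose log2 fold changes were 0.05 in heart, 0.11 in kidney, 0.59 in liver and 0.05 in lung. Rpl12, Rpl7l1, Rps23rg1 and Rpl4 followed. In the Fat4 line 1 of 87 members, again Rpl3, had a tissue difference (adjusted p = 0.00332), beside 7.13% of all genes. Its log2 fold changes in that line were -0.0095 in heart, 0.02 in kidney, 0.24 in liver and 0.02 in lung.

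Members moved together from library to library. All members together took a median of 1.17% of counts in WT and 1.34% in Het of Dchs1 liver, and 1.44% and 1.63% in Dchs1 kidney. In kidney 29 of 30 and in liver 28 of 29 Het libraries lay above the WT median share, and 2 and 3 of them above the highest WT library. Within a library most core genes stood on the same side of their WT medians. In Dchs1 liver 26 of 29 Het libraries had over 75% of the core genes above their WT medians and 0 had under 25%, while of 30 WT libraries 12 had over 75% and 12 under 25%. In Dchs1 kidney 23 of 30 Het libraries had over 75% and 1 under 25%, against 10 and 11 of the WT libraries. The same split of WT libraries was seen in lung, with 14 over 75% and 14 under 25% in each line. The core genes of a library are thus not independent measurements. A change in the number of cells of a type and a change in mRNA per cell cannot be told apart in bulk tissue.

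The shared level also followed the number stretches. In Dchs1 liver the share in the longest stretch was 1.15% at the median in 23 WT and 1.34% in 24 Het libraries, and in the other stretch 1.42% in 7 WT and 1.36% in 5 Het libraries. Within the longest stretch 78 members were called higher and 1 lower (median log2 fold change 0.25), beside 22.7% and 26.5% of all genes in that fit. Outside it 2 were called higher and 1 lower, with a median log2 fold change of 0.06, beside 8.4% and 7.47% of all genes. Rplp0 had a log2 fold change of 0.0089 there against 0.20 in the longest stretch. Rpl3 had a log2 fold change of 0.56 outside the longest stretch (adjusted p = 0.0212 by edgeR) and 0.63 within it. In Dchs1 kidney the median log2 fold change was 0.16 within and 0.15 outside the longest stretch, with 63 and 2 members called higher, beside 23.7% and 4.6% of all genes, the second fit resting on 7 WT and 5 Het libraries. In Dchs1 lung the share was 3.20% in WT and 3.23% in Het in the longest stretch, and 5.06% and 5.78% in the other, which held 6 libraries of each genotype. The share of mitochondrially encoded transcripts moved the other way there, from 5.41% and 5.43% in the longest stretch to 3.01% and 2.96% in the other. Its part in the members' levels was not tested.

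**Figure D3:**
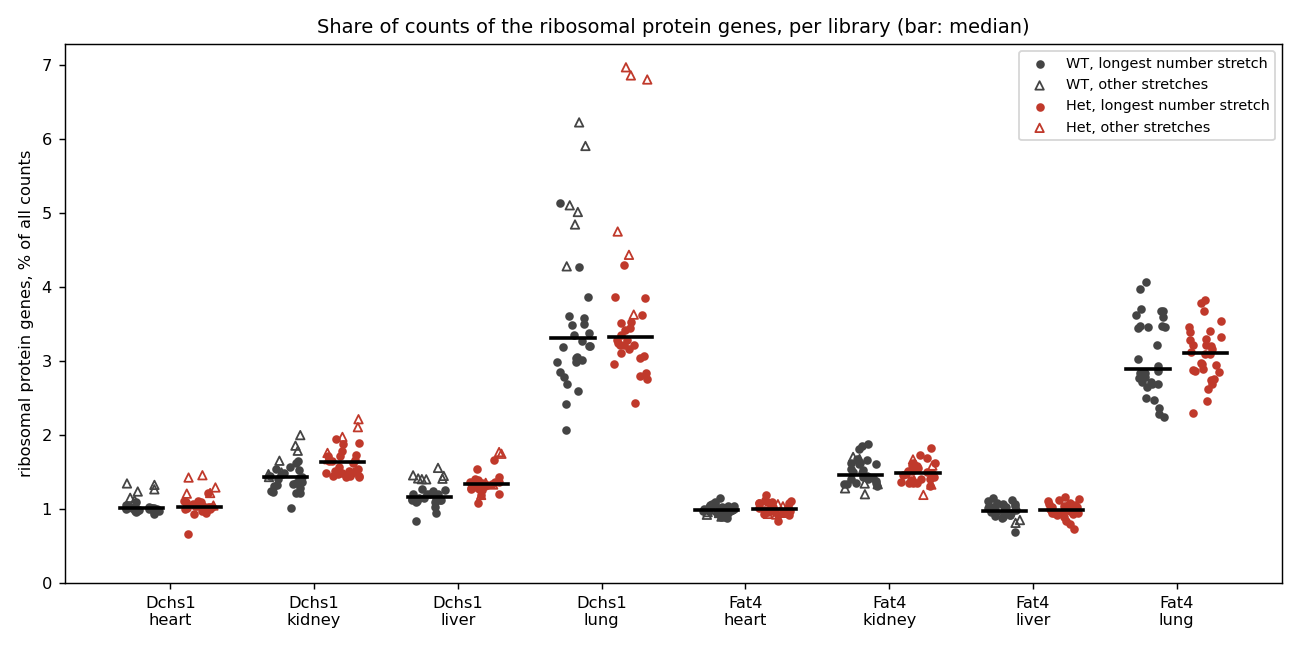
Each point is 1 library; the vertical axis is the percentage of all counts that fell on the 90 ribosomal protein genes, with circles for the longest number stretch, triangles for the others and bars at the median. In Dchs1 kidney and liver 29 of 30 and 28 of 29 Het libraries lie above the WT median, and the triangles of Dchs1 lung have a WT median of 5.06% and a Het median of 5.78%.

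The deposited TPM gave the same direction with another size in kidney. Limma on log2(TPM + 1) called 76 of 87 members higher and 0 lower in Dchs1 kidney, beside 39.2% of all genes higher and 10.7% lower (49.9% in either direction). By this measure 53 members were called higher as on counts, 23 on TPM alone and 1 on counts alone. The TPM values exceeded those on counts by a median of 0.10 log2 units, and the median over all genes was 0.08 on TPM against 0.01 on counts. The members' own median was 0.22 on TPM and 0.13 on counts. In Dchs1 liver TPM called 60 of 86 members higher and 2 lower, beside 20.3% and 25.4% of all genes (45.8% in either direction), all 60 being called on counts too. Rplp0 was among the 8 that counts alone called there, with 0.14 on TPM (adjusted p = 0.0578 by limma). In Fat4 liver the 3 members called on counts had log2 differences of 0.18 for Rpl3, 0.12 for Rpl12 and 0.07 for Rpsa on TPM and none was called. In Fat4 kidney Rpl22l1 was called on TPM as on counts (0.12, adjusted p = 0.0104). In Dchs1 heart TPM called 0 of 86 members higher and 1 lower, beside 24.6% and 19.8% of all genes (44.4% in either direction), and in Dchs1 lung 0, beside 4.06% and 11.5% (15.6%). In Fat4 kidney 1 was called higher and 0 lower, beside 7.77% and 3.63% (11.4%). TPM called 0 members in Fat4 liver, beside 0.921% higher and 5.93% lower (6.85%), 0 in Fat4 heart, beside 0.989% and 0.146% (1.13%), and 0 in Fat4 lung, beside 0.0415% and 0.0277% (0.0691%). No member was called in opposite directions on the 2 scales.

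**Figure D4:**
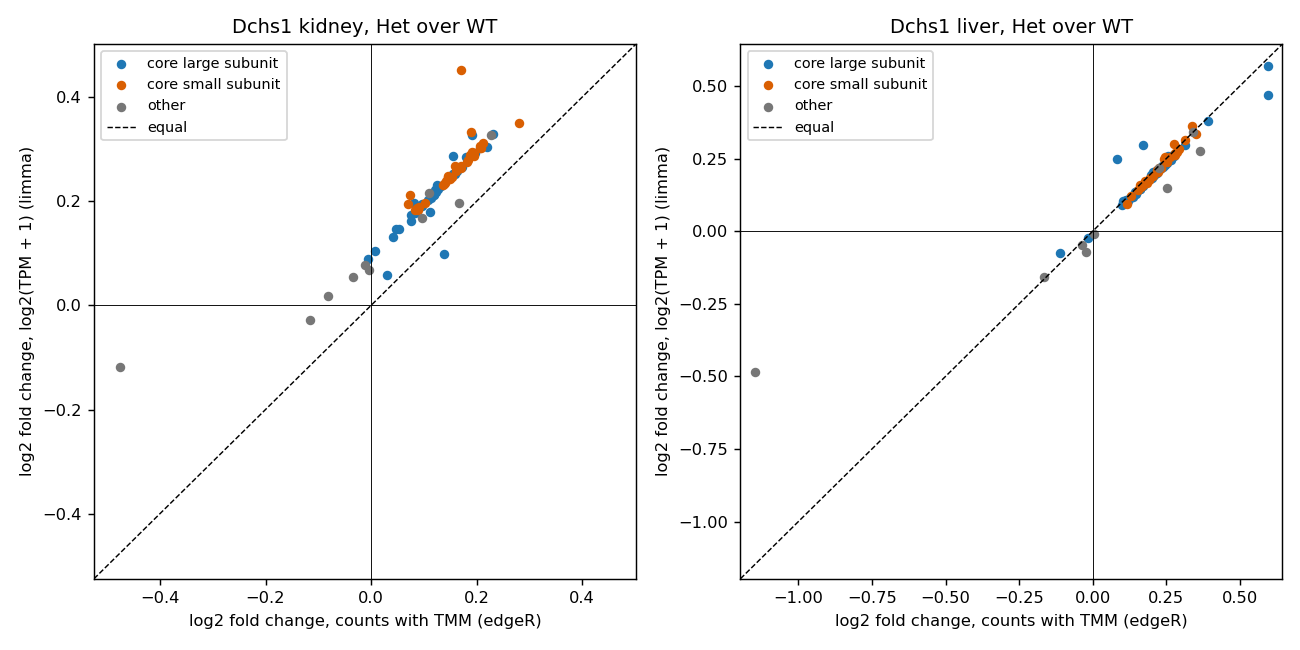
Each point is a ribosomal protein gene of the Dchs1 line; the horizontal axis is the edgeR log2 fold change on counts, the vertical axis that of limma on log2(TPM + 1), and the dashed line marks equality. Nearly all kidney points lie above the line, by a median of 0.10, and the liver points lie close to it.

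Other short transcripts were counted beside the members, since ribosomal protein mRNAs are short. Protein-coding genes outside the set with a length, read from counts per TPM, no greater than the median member were taken. Of 203 tested in Dchs1 kidney 12 were called higher and 113 lower (median log2 fold change -0.17), beside 23.4% and 23.8% of all genes. Of 181 in Dchs1 liver 41 were called higher and 35 lower (median 0.01), beside 24.3% and 25.4% of all genes. The part of transcript length in the members' difference was not tested.

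In WT libraries, TPM levels of the core genes were highest in lung for 77 of 78 genes and lowest in heart for 65. The median core gene stood at 274 TPM in heart, 339 in liver, 412 in kidney and 1080 in lung (60 WT libraries per tissue, both lines). Mitochondrially encoded transcripts took a median of 61.9% (Dchs1) and 61.2% (Fat4) of TPM in WT heart and 8.99% and 11.3% in WT lung. As a share of all other counts, members took a median of 1.85% and 1.75% in WT heart and 1.33% and 1.12% in WT liver. The place of heart below liver thus holds for TPM and not for that share. The highest members were Rps24 (599 TPM), Rpl23 (518) and Rplp1 (466) in heart, Rpl41 (880), Rpl23 (789) and Rps29 (719) in kidney, Rpl10 (703), Rpl23 (646) and Rplp1 (598) in liver, and Rps27rt (2245), Rps24 (2223) and Rps29 (2043) in lung. Rpl5 stood at 279 TPM in heart, 376 in liver, 390 in kidney and 1166 in lung. Rps6 stood at 334 in heart, 474 in kidney, 480 in liver and 1373 in lung. Rplp0 stood at 360 in liver, 387 in heart, 466 in kidney and 1071 in lung. Ranges of liver and kidney overlapped for each of these 3 genes, and lung lay above the highest library of every other tissue for Rpl5 and Rps6. For Rplp0 the lung range (560 to 1336) overlapped that of kidney (230 to 586).

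Median TPM of Rpl3l and Rpl22 differed by more than 10-fold between tissues. Rpl3l, the paralog of Rpl3 made in striated muscle, had a median of 117 TPM in heart, 3.70 in kidney, 0.714 in lung and 0.0729 in liver. Rpl3 itself stood at 100 TPM in heart, 167 in liver, 269 in kidney and 803 in lung, so heart was the tissue where the paralog's level was above that of Rpl3. Rpl3l in heart was not called in either line, with log2 fold changes of -0.04 ± 0.03 for Dchs1 and 0.08 ± 0.04 for Fat4. Rpl22, whose paralog Rpl22l1 is listed above, ranged from 60.7 TPM in heart and 92.4 in liver to 293 in kidney and 754 in lung. Rpl10l and Rpl39l, paralogs known from the testis, were listed at 0 in 423 and 241 of the 479 libraries.

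Several members share their coding sequence with another row, so that their own level cannot be read alone. Among the rows, 17 members had a near-identical copy (at least 95% identity over at least 90% of the coding sequence in GENCODE M21). Rps27 and Rps27rt are identical over all 252 coding bases, and the deposited estimates gave medians of 55.1 TPM to Rps27 and 2272 TPM to Rps27rt in lung. Rpl30 and the transcribed pseudogene Gm12191 (chr11:49678620-49679143) differ at 1 of 345 coding bases, G96A counted from the first base of the start codon. Bases 66 to 125 of the coding sequence are shown for both, with that base in capitals, because it is the one coding base by which the rows can be told apart.
Rpl30: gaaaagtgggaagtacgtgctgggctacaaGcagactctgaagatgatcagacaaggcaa
Gm12191: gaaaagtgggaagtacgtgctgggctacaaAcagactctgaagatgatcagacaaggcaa
In heart, kidney and liver 0 libraries had over 100 TPM at Rpl30 and all had over 100 TPM at Gm12191. In lung 54 of 120 libraries had over 100 TPM at Rpl30, the other 66 had it at Gm12191, and 0 had it at both. The sum of the rows ranged from 846 to 2177 TPM in lung with a median of 1228. Rpl26 had over 100 TPM in 2 of 120 heart libraries and Gm15772 in the other 118, and Rpl34 had a median of 9.23 TPM in lung against 957 at Rpl34-ps1. After counts were summed with those of the copies, an alternative chosen after the data were seen, 75 members were called higher and 2 lower in Dchs1 liver and 59 higher and 1 lower in Dchs1 kidney, beside 26% of all genes higher in liver and 24.8% in kidney. The call of Rpl30 in Dchs1 liver (log2 fold change 0.59, from medians of 0.681 and 1.21 CPM) rests on about 1 CPM and is uncertain.

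**Figure D5:**
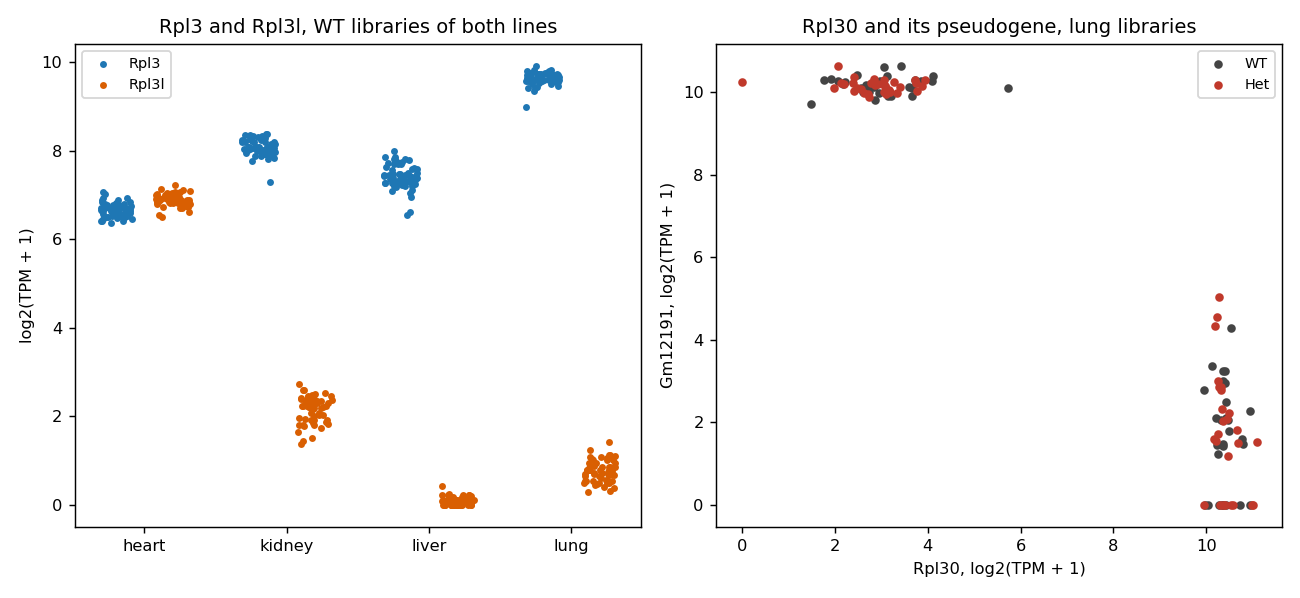
Left, log2(TPM + 1) of Rpl3 and Rpl3l in each WT library by tissue; right, log2(TPM + 1) of Rpl30 (horizontal) against Gm12191 (vertical) in each lung library, WT in grey and Het in red. Rpl3l is near Rpl3 in heart and near 0 in liver, and each lung library has its reads at Rpl30 (54 libraries) or at Gm12191 (66 libraries).

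Genes that work with the ribosome were counted from lists chosen for this purpose. Of 31 ribosome biogenesis genes 26 were called higher and 1 lower in Dchs1 kidney, 23 and 2 in Dchs1 liver, 14 and 4 in Dchs1 heart, 3 and 2 in Dchs1 lung, and 13 and 0 in Fat4 kidney. The shares of all genes called higher in these comparisons were 23.4%, 24.3%, 26.1%, 9.6% and 9.21%, so the lung count lies at the background. Npm1, a nucleolar chaperone of ribosome assembly, went from a median of 187 CPM to 253 in Dchs1 kidney (log2 fold change 0.41 ± 0.04, adjusted p = 2.97e-14), and 30 of 30 Het libraries were above the WT median. Of 20 translation factors and related genes with TOP mRNAs, 16 were called higher and 0 lower in Dchs1 kidney, 15 and 1 in liver, 10 and 0 in lung and 7 and 0 in heart, beside 23.4%, 24.3%, 9.6% and 26.1% of all genes called higher. Npm1 is on both lists. Eef1a1, the elongation factor that brings tRNAs to the ribosome, had a log2 fold change of 0.17 ± 0.02 in Dchs1 kidney (adjusted p = 3.44e-08). Eif4b went against the list in Dchs1 liver, with a log2 fold change of -0.19 ± 0.03 (adjusted p = 1.16e-06). The mTORC1 list was mixed in Dchs1 liver, with 6 of 21 genes higher and 8 lower, beside 24.3% and 25.4% of all genes. Mtor itself was lower in Dchs1 kidney (-0.52 ± 0.07, adjusted p = 3.24e-08) and higher in Dchs1 liver (0.23 ± 0.04, adjusted p = 2.52e-07).

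Of 78 mitochondrial ribosomal protein genes, which serve the separate ribosome of that organelle, 51 were called lower and 2 higher in Dchs1 kidney (median log2 fold change -0.12), beside 23.8% and 23.4% of all genes. In Dchs1 liver 19 of the 78 were called higher and 13 lower (median 0.04), near or under the 24.3% and 25.4% of all genes. Their difference from the cytosolic set was not tested. Rack1, a protein of the small subunit outside the naming rule, was higher in Dchs1 kidney (0.22 ± 0.04, adjusted p = 8.92e-07) and liver (0.21 ± 0.05, adjusted p = 0.00115). Markers of lymphocytes were lower in the same Het libraries. In Dchs1 kidney all 3 tested B and plasma cell genes and all 4 tested T cell genes were called lower, with summed B and plasma cell levels of 1.76 to 6.56 CPM in WT and 1.17 to 5.19 in Het, and T cell levels of 2.30 to 6.32 and 1.49 to 4.0. In Dchs1 liver 2 of 3 B and plasma cell genes and 1 of 1 T cell gene tested were called lower, with summed levels of 0.829 to 6.14 CPM in WT and 0.913 to 7.32 in Het for the former, and 1.58 to 3.56 and 1.16 to 3.81 for the latter. In Dchs1 lung, where 1 member was called, 3 of 5 B and plasma cell genes and 4 of 5 T cell genes were lower too. Erythroid genes were lower in 2 of 6 in Dchs1 kidney (summed 721 to 2212 CPM in WT and 585 to 1785 in Het) and 1 of 5 in liver (206 to 1354 and 151 to 1014). Of all genes 23.8% were called lower in Dchs1 kidney, 25.4% in liver and 10.4% in lung, so the erythroid counts lie near that share. In Dchs1 heart the 3 erythroid genes of smallest p among the 7 listed (Slc4a1, Hbb-bt and Alas2) were called lower, beside 24.1% of all genes. Of the same 7, Slc4a1 and Hbb-bt were called lower in Fat4 kidney, beside 7.87% of all genes. Of proliferating cell markers 0 of 4 were called in Dchs1 kidney and 0 of 3 in liver, beside 47.2% and 49.8% of all genes. In Dchs1 heart Mki67 alone among the 4 listed markers was called, and it was higher (log2 fold change 0.56 ± 0.10), beside 26.1% of all genes called higher. The part of these cells in the members' difference was not tested.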

How the data were processed

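For each line the authors deposited estimated counts and TPM, with genes as NCBI numbers, for 239 (Dchs1) and 240 (Fat4) libraries. Every column matched a labelled library (0 unused). Per the labels' protocols, poly(A) RNA was used for strand-specific single-end libraries; read lengths given there conflict. Per the submitters' processing notes, which give no roles, bcl2fastq 2.17 and FastQC were used with GRCm38. Aligner and counter: not given in the sources used here. Deposited counts are not whole where reads were divided among rows: 43 of the 90 members were whole in every library and 32 were not whole in over 50% of libraries. Deposited TPM are scaled to length and to the library's total and keep no depth.

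After rounding, counts went through edgeR 4.0.16 under R 4.3.3 (TMM, filterByExpr with minimum count 10 and minimum total 15, quasi-likelihood F test), each comparison on its own libraries, with adjustment over all genes tested; interactions were fitted over both lines of a tissue or all tissues of a line. Printed CPM use the TMM-scaled library size. TPM were tested with limma 3.58.1 on log2(TPM + 1) for genes of at least 1 TPM in 20 libraries; a fold change on that scale understates that of low genes. The alternatives tried comprised DESeq2 1.42.0, edgeR with the DESeq2 size factors, library totals, a pseudocount of 0.1, no filters, number stretches (a new one where neighbouring numbers differ by more than 2), removal of libraries whose median correlation lay 5 median absolute deviations below the rest, and sva 3.50.0 with at most 5 surrogate variables. Procedures were tested on simulated data.

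Symbols came from RefSeq (GRCm38.p6) for 24375 of 24475 identifiers, and start windows from the same build. Named members were Rpl5, Rps6 and Rplp0, up to 3 of the smallest p called in each direction of a comparison, 5 of the smallest p in each interaction test, the 3 highest in each tissue, those over 10-fold between tissues, and those with shared reads; others from the lists were among the 3 of smallest p. Rpl30 and Rpl26 with their copies, Rack1, and Rpl22l1 and Rps27rt in Dchs1 tissues were also taken after their values were seen. Members, lists and tests were chosen with earlier results of these data known.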

Additional observations from a re-analysis of the deposited data

Results flagged for a closer look

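The Het effect differed between the Dchs1 and Fat4 lines, by edgeR's interaction test, in 39 members in kidney, 29 in liver and 1 in heart. Among all genes tested, the shares with a line difference were 33.5% (kidney), 23.6% (liver) and 25.5% (heart). The heart count, 1 of the 86 members tested, thus lies far under its background share. In kidney the Dchs1 effect less the Fat4 effect, in log2 units, was 0.20 for Rps4x, 0.19 for Rps3a1, 0.20 for Rpl7, 0.19 for Rplp0 and 0.16 for Rpl4. In liver it was 0.24 for Rplp2, 0.37 for Rpl3, 0.41 for Rps27, 0.23 for Rpsa and 0.23 for Rps13. Rps27 shares its coding sequence with Rps27rt and is uncertain. In heart it was -0.13 for Rpl7l1, an assembly factor. Lines were separate sets of libraries, so a difference between the sets and one between the alleles cannot be told apart.

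The Het effect differed between tissues in 12 of 87 members of the Dchs1 line and in 1 of 87 members of the Fat4 line. The shares of all genes with such a difference were larger, 52.2% and 7.13%. In the Dchs1 line the smallest adjusted p-values, by edgeR's interaction test, were 3.38e-12 for Rpl3, 3.08e-05 for Rpl12, 3.25e-05 for Rpl7l1, 0.000288 for Rps23rg1 and 0.000742 for Rpl4. In the Fat4 line the value was 0.00332 for Rpl3, the member at the top of both lines.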

How the results depend on the processing

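The median log2 fold change of members in Dchs1 kidney and liver was above 0 in all 14 fits made for each (0.13 to 0.23 and 0.06 to 0.25), and their counts of called members left the range of 1.5 times the reported value in the fits outside the longest number stretch, with 2 called in kidney and 3 in liver on 12 libraries each. Fewer libraries enter those fits, in which 10.7% of all genes were called in kidney and 15.9% in liver. Elsewhere the reported counts are small and moved often. In Dchs1 heart (2 reported) 1 was called by DESeq2, with its size factors in edgeR, with library totals and in each of the 3 TPM fits, 14 with the stretch as a covariate, 5 in the longest stretch alone, 0 outside it and 11 with surrogate variables. In Dchs1 lung (1 reported) 0 were called with library totals, in each of the 3 TPM fits, without the count filter, with counts summed with copies (chosen after seeing the data), outside the longest stretch and without the outlying libraries (25 WT and 27 Het left), 25 with surrogate variables and 2 with the stretch as a covariate. In Fat4 kidney (1 reported) 2 were called by DESeq2 and with the stretch as a covariate, 0 outside the longest stretch and 9 with surrogate variables. In Fat4 liver (3 reported) 1 was called with library totals, 0 in each of the 3 TPM fits, 6 without the outlying libraries and 16 with surrogate variables. In Fat4 lung 1 was called without the count filter. The line difference in heart fell to 0 members on TPM. Calls over all genes moved between fits as well. With surrogate variables, 57.8% of all genes were called in Dchs1 heart and 46.4% in Dchs1 lung. The same setting called 20.7% in Fat4 kidney and 11% in Fat4 liver. The reported fits called 50.2%, 20%, 17.1% and 7.15%, in the same order. Without the outlying libraries 26.6% were called in Dchs1 lung and 11.4% in Fat4 liver. The causes were not tested.

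Among named members 19 values changed sign, all of genes that were not called. On TPM, Rpl5 in Dchs1 lung was -0.0061 at either pseudocount and without the filter, Rps6 in Fat4 kidney 0.018, Rplp0 in Fat4 kidney 0.0020 and Rplp0 in Fat4 lung -0.0076. Rps6 in Fat4 kidney was further 0.0037 without the count filter, 0.015 with the stretch as a covariate, 0.0022 in the longest stretch and 0.024 with surrogate variables. Rplp0 was 0.00023 with surrogate variables in Fat4 kidney and -0.0070 with library totals in Fat4 lung, and Rpl5 was -0.00092 outside the longest stretch in Fat4 kidney. The targeted gene Dchs1 in Dchs1 lung was -0.70 outside the longest stretch and no longer called.

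No paired analysis was possible because library numbers in the labels are unique to each library and are shared by no pair of groups. Fat4 lung holds 1 stretch, so no stretch fit was made there, and outside the longest stretch Fat4 liver holds no Het library. Depth limits Rps23rg1, which stood at under 5 CPM in every library. Rpl30 and Rpl34 are limited by the division of reads with their copies.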
